A study of Mus musculus with 19 samples.

Results

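The clustered protocadherin genes are 3 neighbouring families, alpha, beta and gamma, on mouse chromosome 18. They were chosen by gene symbol as Pcdha, Pcdhac, Pcdhb, Pcdhga, Pcdhgb or Pcdhgc followed by a number, which took 58 of the 36172 genes in the table. The alpha cluster gave 14 genes, the beta cluster 22 and the gamma cluster 22. The families were taken up because a higher level of Pcdhb9 at 6 than at 3 months of age was already known from these libraries, and the question was whether its neighbours shared that rise. The values of 6 against 3 months are therefore given as a description.

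Whole ovaries came from female C57BL/6 mice, an inbred laboratory strain, and were sequenced as RNA libraries, with n = 5 for mice of 3 months of age, n = 5 for 6 months, n = 5 for 9 months and n = 4 for 12 months. The labels give no genotype change and no treatment at any age, and give neither the stage of the oestrous cycle nor a batch. The library numbers in them run in order of age, so age and handling order cannot be told apart. Nothing in them ties the libraries to separate mice. A p-value here therefore measures variation among the libraries alone, and that variation may be technical.

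Clustered protocadherins are cell-surface adhesion proteins of the cadherin superfamily, known above all from the brain. There each neuron switches on a few of them from many alternative promoters, a choice tied to DNA methylation and to looping by CTCF and cohesin, and the combination lets a cell recognise its own branches. Alpha and gamma genes each join their own variable exon to constant exons shared by the cluster. Beta genes have no shared constant exons, and the C-type genes (Pcdhac1, Pcdhac2, Pcdhgc3, Pcdhgc4 and Pcdhgc5) are the divergent members of the alpha and gamma clusters.

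On the RefSeq models of GRCm38.p6, which is the mm10 build, the alpha genes lay at chr18:36930285-37188897, the beta genes at chr18:37264998-37521419 and the gamma genes at chr18:37661775-37841873. Library totals ran from 10851519 to 14302207 estimated counts, and levels are given as CPM, counts scaled to a common library size by TMM, edgeR's method. Of the 58 genes, 45 were frequent enough to be tested, among 15518 genes in all, namely 2 alpha, 21 beta and 22 gamma genes. The 13 genes not tested were 12 alpha genes and Pcdhb1. In whole tissue, fewer cells of a type and less RNA per cell cannot be told apart.

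Pcdhb9 had 15.5, 15.6, 12.99, 14.7 and 12.8 CPM in the 5 libraries at 3 months, and 23.1, 28.3, 28.6, 26.3 and 27.4 CPM in the 5 at 6 months. It had 29.7, 38.3, 44.8, 42.9 and 29.9 CPM at 9 months and 29.5, 35.2, 29.4 and 24.4 CPM at 12 months. Every library at 6, 9 and 12 months was above every library at 3 months, while the 9 and 12 month libraries overlapped. The means were 14.3 ± 1.32 CPM (SD, n = 5), 26.7 ± 2.23 (n = 5), 37.1 ± 7.08 (n = 5) and 29.6 ± 4.43 (n = 4) in order of age. The log2 change from 3 months was 0.90 ± 0.12 (SE) at 6 months, 1.37 ± 0.12 at 9 and 1.05 ± 0.13 at 12 months. These 3 values share the 3 month libraries with the choice of the gene and are given without a test. The comparison that used none of those libraries, 12 against 9 months, gave a log2 change of -0.32 ± 0.13, which did not pass (edgeR quasi-likelihood test, adjusted p = 0.284). Without the 3 libraries that held more than 5 CPM of Cr2, a lymphoid gene, it was -0.51 ± 0.14 (edgeR adjusted p = 0.0994), the lowest of 0.0994 to 0.664 over the alternatives run.

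Pcdhb9, a beta gene with a single exon of 3055 bases at chr18:37400855-37403909, was also the beta gene with the highest level per length. It averaged 8.77 CPM per kb of transcript over the 4 ages. By the GENCODE M21 transcript lengths used, Pcdhb20 followed with 2.41 CPM per kb and Pcdhb7 with 2.28, and Pcdhb1 was lowest with 0.128. The counts are of RefSeq models, and for some genes the GENCODE length exceeds the RefSeq span. An example is Pcdhb17, with 4660 bases in GENCODE and a RefSeq span of chr18:37485021-37488290. The order of the genes below Pcdhb9 therefore depends on the lengths used. Pcdhb9 ranked above all other beta genes at each age, from 4.68 CPM per kb at 3 months to 12.1 at 9 months.

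**Figure D1:**
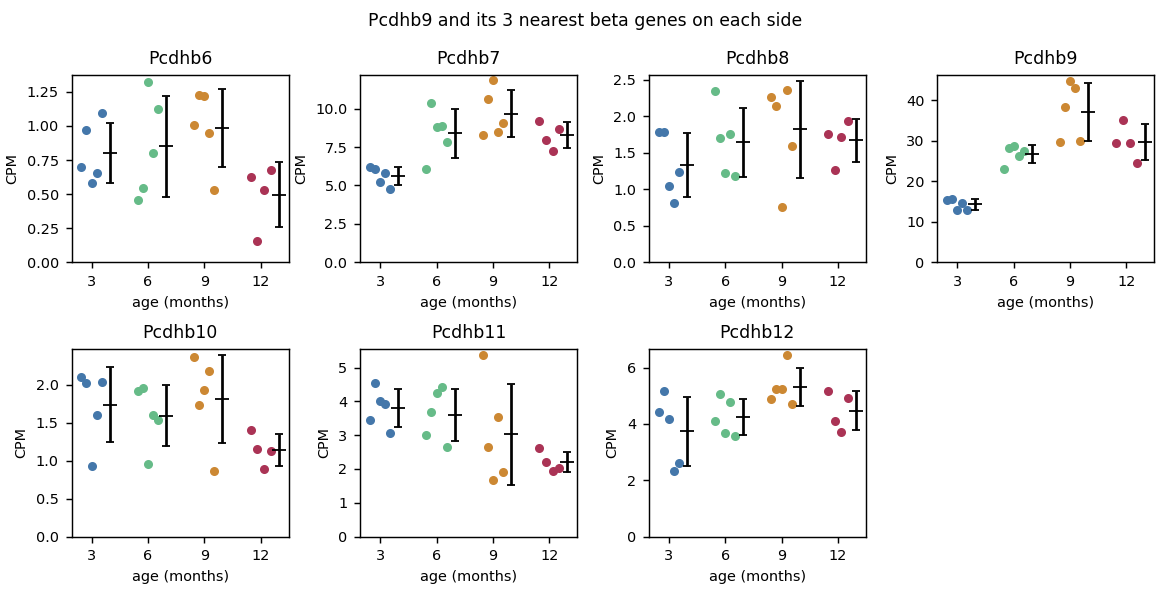
Level in CPM against age in months for Pcdhb9 and the 3 beta genes on each side of it; each point is 1 library and the bar is the mean ± SD. Pcdhb9 is at 12.8 to 15.6 CPM at 3 months and at 23.1 to 28.6 at 6 months, with no overlap. Every other panel overlaps between these ages, as most genes do, since 1.77% of all genes tested had no overlap with the older age higher.

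All 6 nearest beta genes overlapped between 3 and 6 months. Among all genes tested 1.77% had no overlap with the older age higher and 1.85% with it lower. Overlap is thus the usual case, and nothing is read from it. The 3 nearest beta genes upstream of Pcdhb9 had log2 changes of 0.10 ± 0.37 (Pcdhb6), 0.58 ± 0.15 (Pcdhb7) and 0.30 ± 0.32 (Pcdhb8). The 3 nearest downstream had -0.13 ± 0.29 (Pcdhb10), -0.08 ± 0.26 (Pcdhb11) and 0.18 ± 0.21 (Pcdhb12). In 6 against 3 months 1 of the 45 tested genes was past the threshold, and that was Pcdhb9, the gene on which the choice of the family rests. The share of all genes tested was 0.0193% in either direction, 0.0129% higher and 0.00644% lower, and nothing is read from the count. Pcdhb9 was not past the threshold with limma-trend on the authors' log2 values, without replicate 3 of 3 months or without replicate 3 of 6 months, and with limma-voom Pcdhb7 was past it too.

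Over the 44 tested genes other than Pcdhb9, 34 had a positive change and 10 a negative one, with a median log2 change of 0.13, where the median of all genes tested was -0.000637. The largest of these were 1.37 ± 0.45 for Pcdha4, 0.76 ± 0.39 for Pcdhb2, 0.58 ± 0.15 for Pcdhb7 and 0.55 ± 0.21 for Pcdhgb1 upward. Downward they were -0.78 ± 0.46 for Pcdhgc5, -0.49 ± 0.35 for Pcdhb21 and -0.46 ± 0.37 for Pcdhgc4. No other tested gene of the 3 clusters was separate between these ages. Of all genes tested, 1.77% were separate with the older age higher and 1.85% with it lower, and nothing is read from the absence.

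Of the 6 neighbours Pcdhb7 had the largest positive change from 3 months at each older age. It had 6.23, 6.05, 5.19, 5.83 and 4.78 CPM at 3 months and 6.08, 10.4, 8.82, 8.87 and 7.85 CPM at 6 months, so a single 6 month library fell within the 3 month range. It had 8.28, 10.6, 11.9, 8.50 and 9.06 CPM at 9 months and 9.23, 7.98, 7.25 and 8.67 CPM at 12 months. All 9 libraries of these 2 ages were above all 5 at 3 months. Pcdhb7 rose by 0.78 ± 0.15 on the log2 scale from 3 to 9 months (edgeR adjusted p = 0.00117) and by 0.56 ± 0.16 from 3 to 12 months (edgeR adjusted p = 0.0174). The second call was lost without replicate 1 of 12 months, at 0.50 ± 0.17 with an edgeR adjusted p of 0.0514, the highest of 0.00663 to 0.0514 over the alternatives run. Both comparisons share the 3 month libraries with that of Pcdhb9.

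Pcdhb7 was also the gene with the most sequence in common with Pcdhb9. Of the 3006 windows of 50 bases along the annotated Pcdhb9 transcript, 189 (6.29%) occurred unchanged in a Pcdhb7 transcript, and Pcdhb3 came next with 49. In all, 263 windows (8.75%) occurred in another gene, and those were 7 beta genes. Shares of this kind ran from 0 in Pcdhb1 to 12.0% in Pcdhb12 over the 22 beta genes. The estimated count of Pcdhb9 was a whole number, to within 0.0001, in 6 of 19 libraries and that of Pcdhb7 in 9, and how the counting shared out reads to give the fractions is not given in the sources used here. Whether reads of Pcdhb9 were counted for Pcdhb7 was not tested.

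Pcdhb8 and Pcdhb9 were separated by 43244 bases, the widest of the 21 gaps between neighbouring beta genes, whose median was 4263 bases. On the upstream side of that gap Pcdhb8 had mean levels of 1.33 ± 0.44, 1.65 ± 0.47, 1.82 ± 0.66 and 1.67 ± 0.29 CPM in order of age (SD, n = 5, 5, 5 and 4). Its log2 change was 0.46 ± 0.31 at 9 months and 0.32 ± 0.33 at 12 months, and neither passed (edgeR adjusted p = 0.299 and 0.525). Pcdhb6, further upstream, had 0.98 ± 0.28 CPM at 9 months and 0.50 ± 0.24 at 12 months, against 0.80 ± 0.22 at 3 months, and passed in no comparison.

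On the downstream side the direction was mixed. Pcdhb11 had 3.45, 4.56, 4.02, 3.94 and 3.06 CPM at 3 months, 3.00, 3.68, 4.26, 4.42 and 2.65 CPM at 6 months, 5.36, 2.66, 1.67, 3.54 and 1.92 CPM at 9 months, and 2.62, 2.22, 1.95 and 2.04 CPM at 12 months. All 4 libraries at 12 months were below all 5 at 3 months, and the 9 month libraries spread over both ranges. The log2 change at 12 months was -0.78 ± 0.29, which did not pass (edgeR adjusted p = 0.0562). It did pass in DESeq2 (adjusted p = 0.0363), in limma-trend on the authors' log2 values (adjusted p = 0.0473), in edgeR with the 2 ages alone (adjusted p = 0.0297) and in edgeR without the libraries with Cr2 (adjusted p = 0.0413), and over all alternatives run the adjusted p ranged from 0.0297 to 0.139. Pcdhb10, the next gene downstream of Pcdhb9, had a log2 change of -0.60 ± 0.32 at 12 months (edgeR adjusted p = 0.182), and Pcdhb12 one of 0.26 ± 0.22 (edgeR adjusted p = 0.413).

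Among the beta genes tested other than Pcdhb9, 1 of 20 rose and 0 fell at 9 months, and likewise at 12 months. At both ages the gene was Pcdhb7. Among all genes tested 11.3% rose and 13.6% fell at 9 months, and 10.9% rose and 11.5% fell at 12 months. The median log2 change of these 20 was 0.24 at 9 months and 0.15 at 12 months. Pcdhb17 and Pcdhb20, with Pcdhb7 the highest after Pcdhb9 per length, had log2 changes of 0.26 ± 0.15 and 0.36 ± 0.16 at 9 months (edgeR adjusted p = 0.224 and 0.0959). Pcdhb3 did not pass at 12 months, with 0.53 ± 0.24 (edgeR adjusted p = 0.112), although its 12 month libraries were all above its 3 month ones. Pcdhb2 had the largest positive change of these 20 genes at 9 months, 0.86 ± 0.38, and did not pass (edgeR adjusted p = 0.105). At 9 months Pcdhb2, Pcdhb3, Pcdhb18 and Pcdhb20 passed in 1 of 18 alternatives each and Pcdhb12 in 2.

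The summed level of the beta genes without Pcdhb9 was 72.2 ± 9.16, 80.8 ± 6.13, 86.8 ± 3.06 and 79.3 ± 4.59 CPM in order of age (SD, n = 5, 5, 5 and 4). Pcdhb9 made up 16.6 ± 1.62, 24.9 ± 2.22, 29.7 ± 3.69 and 27.1 ± 2.74% of the beta sum in the same order. With Pcdhb9 counted the sum was 1.24, 1.43 and 1.26 times its 3 month mean at 6, 9 and 12 months, and without it 1.12, 1.20 and 1.10 times. The share at 12 months lay 2.63 percentage points under that at 9 months, which did not pass an exact permutation test (two-sided p = 0.270, n = 4 and 5, smallest possible 0.00794).

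**Figure D2:**
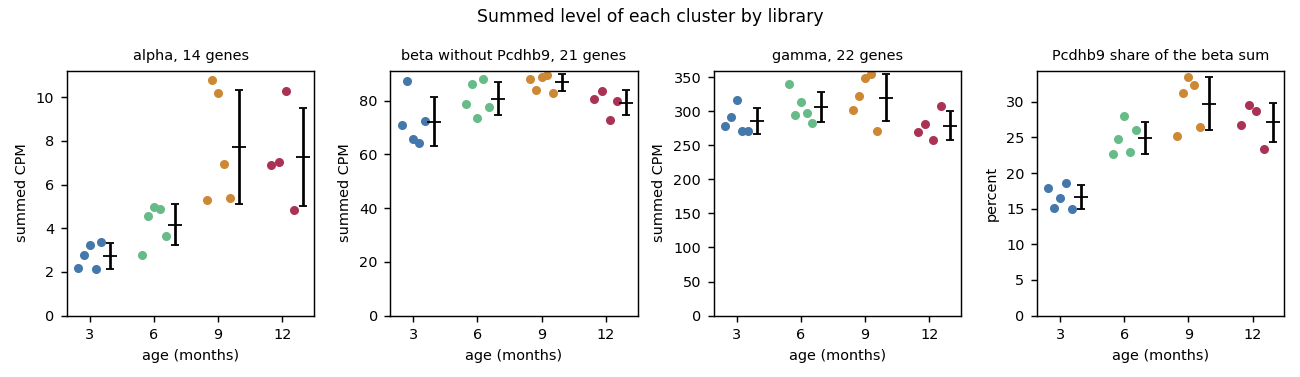
Summed level in CPM of the alpha genes, of the beta genes without Pcdhb9 and of the gamma genes, and the share of Pcdhb9 in the beta sum in percent, against age in months; points are libraries and bars the mean ± SD. The alpha mean goes from 2.73 CPM at 3 months to 7.72 at 9 months, and the share of Pcdhb9 from 16.6% to 29.7%.

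Across the 3 clusters 4 of the 44 tested genes other than Pcdhb9 rose from 3 to 9 months and 0 fell, where 11.3% of all genes tested rose and 25.0% were called in either direction. They were Pcdhb7, Pcdha4, Pcdhac2 and Pcdhgb1. Of these, Pcdha4 and Pcdhac2 met the low-count filter only through libraries older than 3 months, so their calls are not independent of their level there. From 3 to 12 months 3 of the 44 rose and 0 fell, namely Pcdhb7 and, with the same limit, Pcdha4 and Pcdhac2. Of all genes 10.9% rose and 22.4% were called in either direction. The median log2 change of the 44 was 0.21 at 9 months and 0.12 at 12 months, against 0.01 and 0.02 for all genes tested. In 12 against 9 months 0 of the 45 genes were called and 0% of all genes (edgeR). DESeq2 called 252 genes in that comparison, 0 of them in the clusters. The median log2 change of the 44 there was -0.19, against 0.02 for all genes, and 33 of the 44 were negative.

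Besides Pcdhb9, 4 of the 44 tested genes had their 5 libraries at 9 months wholly above those at 3 months. The 4 libraries at 12 months were wholly above them for 4 of the 44. At 9 months these were the 4 genes that rose, where 5.54% of all genes tested were separate in that direction, and 0 were wholly below, where 9.46% of all genes were. At 12 months they were Pcdhb3, Pcdhb7, Pcdha4 and Pcdhgb1, where 6.74% of all genes were. Pcdha4 and Pcdhac2 carry the limit of the low-count filter here too. Pcdhb11 was wholly below at 12 months, where 9.73% of all genes were, and Pcdhb5 was wholly below its 9 month libraries, where 1.10% of all genes were, with 0 genes wholly above them, where 1.16% of all genes were.

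**Figure D3:**
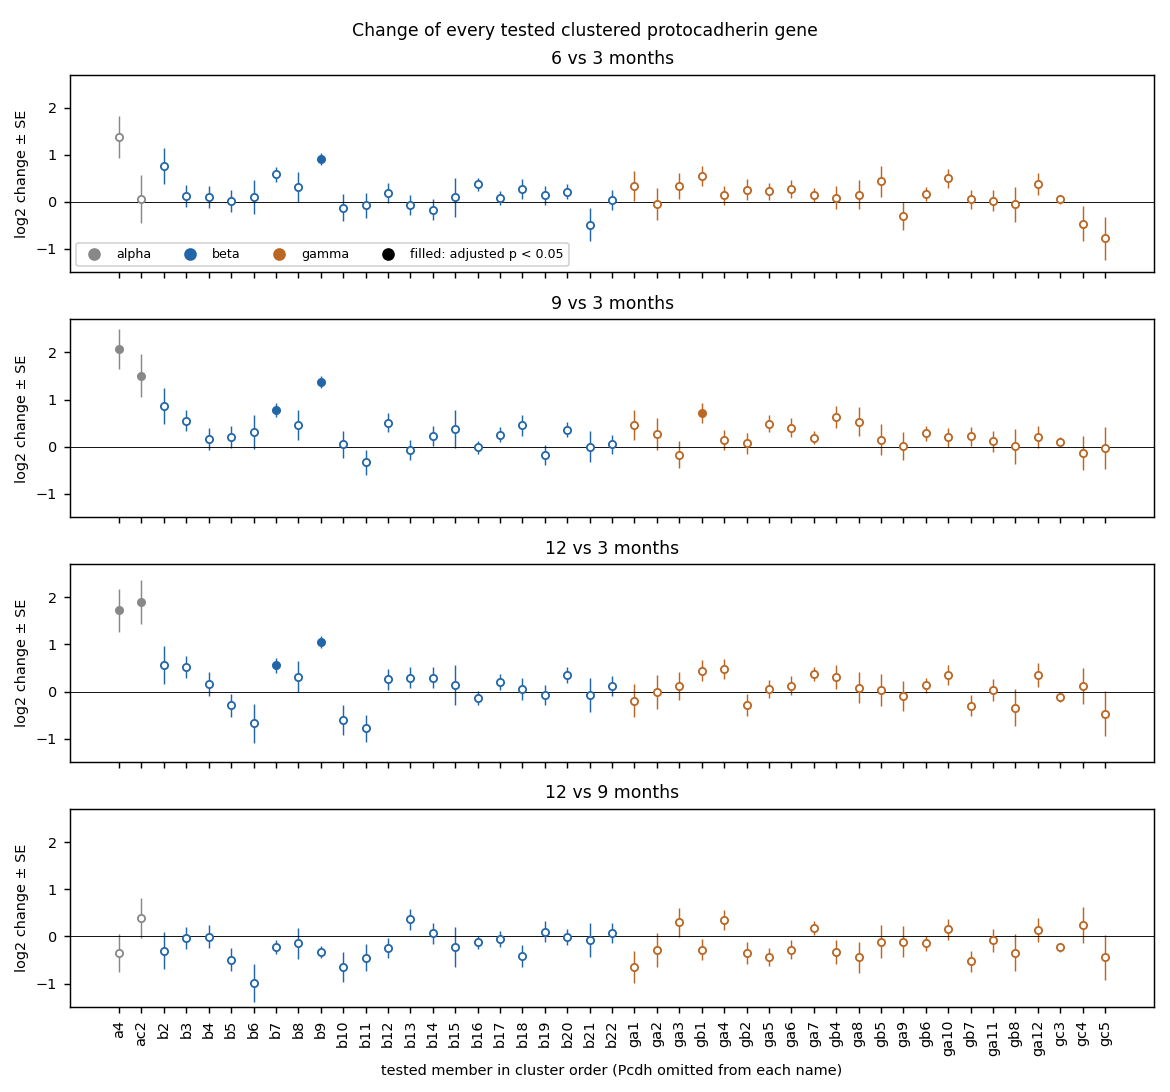
Log2 change ± SE of each of the 45 tested genes in the order of the clusters, for 4 comparisons of ages; filled points have an edgeR adjusted p under 0.05, and the points of Pcdhb9 against 3 months are not independent of its choice. Filled points are 1 at 6 months, 5 at 9 months and 4 at 12 months, all above 0, and none in 12 against 9 months. Those of Pcdha4 and Pcdhac2 carry the limit that both genes met the low-count filter only through older libraries.

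Markers of several ovarian cell types were called at 9 and 12 months. For comparison, 11.3% of all genes tested rose and 13.6% fell at 9 months, and 10.9% rose and 11.5% fell at 12 months. At 9 months 10 of 10 oocyte markers fell, and 7 of 7 endothelial, 7 of 8 macrophage, 6 of 9 stromal, 5 of 7 smooth muscle and 5 of 7 lymph node markers rose, with 1 stromal marker falling. Of 8 surface epithelial markers 5 rose, of 6 oviduct markers 1 rose, of 7 theca and luteal markers 1 rose and 2 fell, and of 10 granulosa cell markers 2 fell. At 12 months 9 of 10 oocyte markers fell, and 3 of 7 endothelial, 4 of 8 macrophage, 2 of 9 stromal, 4 of 7 smooth muscle and 4 of 7 lymph node markers rose, again with 1 stromal marker falling. At that age 4 of 8 surface epithelial and 2 of 6 oviduct markers rose, 1 of 7 theca and luteal markers rose and 2 fell, and 2 of 10 granulosa cell markers fell. The summed endothelial markers were at 311 to 347, 331 to 376, 455 to 521 and 384 to 446 CPM in order of age. The summed stromal markers were at 3679 to 4299, 4049.7 to 4932, 4756 to 7472 and 3970.6 to 5386 CPM in the same order. The summed oocyte markers went the other way, from 237 to 372 CPM at 3 months and 132 to 269 at 6 months to 13.6 to 109.7 at 9 months and 45.3 to 113 at 12 months. At 6 months 0 markers of any of the 12 lists were called, where 0.0193% of all genes tested were called in either direction. Among smooth muscle markers Acta2 was listed at 0 in every library.

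Neurons are the cells in which these genes are best known. Of 6 neuronal markers tested 1 rose and 1 fell at 9 months, where 11.3% of all genes tested rose and 13.6% fell. At 12 months 1 rose and 0 fell, where 10.9% of all genes rose and 11.5% fell. Syt1, a synaptic vesicle protein, was the one that rose at 9 months, from 8.34 ± 1.18 CPM at 3 months to 18.1 ± 7.61 (edgeR adjusted p = 0.00226). It was named after its values were seen, and another marker fell at the same age. The median log2 change of the 6 was 0.23 at 9 months and -0.15 at 12 months. The neuronal markers Snap25 and Nefl stayed under a mean of 1 estimated count. The summed neuronal markers were at 77.8 to 147, 65.3 to 113, 69.6 to 102 and 58.0 to 142 CPM in order of age, and the ages overlapped. Of 8 Schwann cell and glial markers 0 rose and 1 fell at 9 months, and 1 rose and 0 fell at 12 months, against the same shares of all genes. The part of any of these cell types in the changes of the protocadherins, or of the related lists described further on, was not tested.

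The alpha genes were low, and a large part of their values was an amount that was equal in many of them. None of their 266 nonzero estimated counts was whole to within 0.0001. In each library between 3 and 12 of the 14 alpha genes had the same lowest value to within 0.001, for example 1.43 in 10 of the 14 genes of replicate 1 at 3 months. That lowest value times 14 made up 48.6% to 86.2% of the alpha sum of a library. In replicate 1 at 3 months it came to 20 of 29 estimated counts. The alpha genes share their constant exons, and a change of a single alpha gene cannot be told apart here from a change of the common amount without setting that amount aside.

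The alpha sum was 29, 37, 45, 29 and 46.5 estimated counts in the 3 month libraries and 30.4, 63.0, 62, 67 and 52 in the 6 month libraries. It was 67, 149.8, 134, 89 and 70.7 at 9 months and 88, 92.1, 138.9 and 63.9 at 12 months. All libraries at 9 and 12 months were above all at 3 months, and the 6 month libraries overlapped with the 3 month ones. Scaled to library size the sum was 2.73 ± 0.59, 4.16 ± 0.93, 7.72 ± 2.62 and 7.26 ± 2.26 CPM in order of age (SD, n = 5, 5, 5 and 4). The 9 and 12 month means were 2.82 and 2.66 times the 3 month mean. At so few counts the spread is wide, and the sum carries no test because the genes were chosen with results known.

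**Figure D4:**
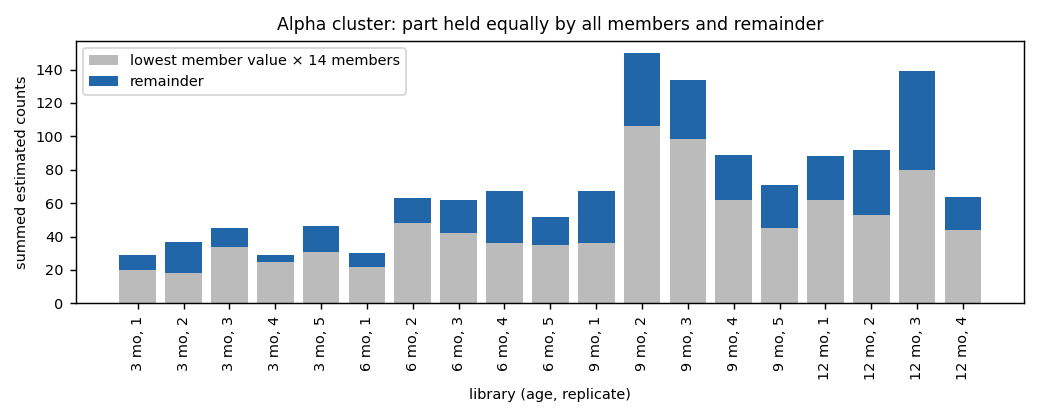
Summed estimated counts of the 14 alpha genes in each of the 19 libraries, split into the lowest member value times 14 (grey) and the remainder (blue). The grey part is 48.6% to 86.2% of each bar, and the bars run from 29 to 149.8 estimated counts.

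Pcdha4, one of the alternative alpha isoforms, rose by 2.08 ± 0.43 on the log2 scale from 3 to 9 months (edgeR adjusted p = 0.00206) and by 1.73 ± 0.46 from 3 to 12 months (edgeR adjusted p = 0.0128). At 3 months no library held more than 4.43 estimated counts of Pcdha4. It met the low-count filter only through libraries of older ages, so its p-values are not independent of its level there. Above the common lowest value it held 1, 1, 2, 2 and 0 estimated counts in the 3 month libraries and 1.74, 2, 4, 13 and 2 in the 6 month ones. It held 6.77, 6.50, 6, 9 and 7 at 9 months and 2, 2.46, 8 and 8 at 12 months. On this remainder the 9 month libraries were all above the 3 month ones, while 1 of the 12 month libraries was level with the highest of 3 months. The 12 month call was lost without replicate 3 of 12 months, at 1.48 ± 0.50 with an edgeR adjusted p of 0.0561, the highest of 0.0119 to 0.0561 over the alternatives run.

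Pcdhac2, a C-type alpha gene, rose by 1.51 ± 0.46 from 3 to 9 months (edgeR adjusted p = 0.0223) and by 1.90 ± 0.47 from 3 to 12 months (edgeR adjusted p = 0.00854). Its 3 month libraries held at most 6.18 estimated counts. Pcdhac2 likewise met the low-count filter only through libraries of older ages, and the same limit holds for its p-values. Above the common lowest value it held 2, 2, 2, 2 and 4 estimated counts at 3 months and 2, 3, 0, 2 and 0 at 6 months. It held 14.5, 9, 2, 2 and 4 at 9 months and 6, 18, 16.7 and 2 at 12 months. Its high libraries were replicates 1 and 2 of 9 months and replicates 2 and 3 of 12 months, and the others at these ages reached the 3 month range on this remainder, replicate 1 of 12 months excepted. The 9 month call was lost without replicate 1 (1.30 ± 0.48, edgeR adjusted p = 0.0538) or without replicate 2 of 9 months (1.35 ± 0.49, edgeR adjusted p = 0.0609), and over the alternatives run that p ranged from 0.0148 to 0.0609. Of its 4 high libraries 3 were also those with Cr2, a gene of B cells and follicular dendritic cells, which had 6.17, 10.7 and 12.5 CPM. Without those 3 libraries Pcdhac2 did not pass the low-count filter and had no test. Pcdha4 was still past the threshold, with log2 changes of 2.13 ± 0.51 and 1.88 ± 0.52 (edgeR adjusted p = 0.00837 and 0.0145). The limit given above for its p-values holds there too. Pcdhac1, the other C-type alpha gene, was not tested and had means of 0.13, 0.23, 0.44 and 0.38 CPM in order of age.

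The gamma genes took most of the counts of the 3 clusters. Their summed level was 286 ± 19.1, 306 ± 22.2, 320 ± 34.5 and 279 ± 21.5 CPM in order of age (SD, n = 5, 5, 5 and 4), and the libraries of the 4 ages overlapped. None of their 418 nonzero estimated counts was whole to within 0.0001, which leaves the split between genes with the same constant exons to the counting. Pcdhgc3, a C-type gamma gene, took most of the sum, with 173 ± 11.4, 179 ± 16.98, 186 ± 24.5 and 159 ± 21.6 CPM. Its share went from 60.6 ± 0.68% at 3 months to 56.7 ± 3.28% at 12 months. Its log2 change was 0.11 ± 0.09 at 9 months and -0.12 ± 0.10 at 12 months, and neither passed (edgeR adjusted p = 0.427 and 0.385). Pcdhgb6, the second in counts, had 14.9 ± 1.43, 16.7 ± 2.81, 18.1 ± 3.79 and 16.3 ± 3.12 CPM, with 1 low library at 12 months of 11.6 CPM.

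Of the 22 gamma genes 1 rose and 0 fell at 9 months, and 0 were called at 12 months, where 11.3% of all genes tested rose and 13.6% fell at 9 months and 22.4% were called at 12 months. The one that rose was Pcdhgb1, an isoform of the gamma-B group, with 4.37, 4.79, 4.56, 3.61 and 3.00 CPM at 3 months and 8.02, 5.18, 6.53, 7.28 and 6.50 CPM at 9 months. It had 4.92, 6.72, 6.74, 8.06 and 3.24 CPM at 6 months and 5.28, 6.91, 4.86 and 4.98 CPM at 12 months. The 9 and 12 month libraries were above all of the 3 month ones, and the 6 month libraries overlapped with them through 1 library. Its rise at 9 months was 0.72 ± 0.21 on the log2 scale (edgeR adjusted p = 0.0187), and it was lost without replicate 5 of 3 months, at 0.64 ± 0.22 with an edgeR adjusted p of 0.0502, the highest of 0.00597 to 0.0502 over the alternatives run. Pcdhgb4 and Pcdhga5, of the gamma-B and gamma-A groups, came nearest among the rest, with 0.63 ± 0.24 and 0.49 ± 0.18 at 9 months (edgeR adjusted p = 0.056 and 0.0538). Each passed in 6 of 18 alternatives, among them DESeq2 (adjusted p = 0.0348 and 0.0336), limma-voom (adjusted p = 0.0329 and 0.0301) and edgeR without the libraries with Cr2 (adjusted p = 0.0457 and 0.0429). Over all alternatives the adjusted p ranged from 0.0288 to 0.127 for Pcdhgb4 and from 0.0221 to 0.187 for Pcdhga5. Pcdhgb7 was called lower at 12 months without replicate 4 of 12 months (-0.64 ± 0.19, edgeR adjusted p = 0.0209) and in no other alternative, where that p reached 0.725, and it had -0.30 ± 0.22 with all libraries (edgeR adjusted p = 0.337). The median log2 change of the 22 was 0.19 at 9 months and 0.07 at 12 months. The other C-type gamma genes had low means, from 2.43 to 3.63 CPM for Pcdhgc4 and from 1.76 to 2.97 CPM for Pcdhgc5, and passed in no comparison.

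The genes that flank the clusters or lie inside them gave a separate view of the locus. Of 18 tested, 3 rose and 1 fell at 9 months, 2 rose and 1 fell at 12 months and 0 were called at 6 months, with median log2 changes of 0.05, 0.01 and -0.03. The shares of all genes tested were 11.3% rising and 13.6% falling at 9 months, and 10.9% and 11.5% at 12 months. At 6 months 0.0193% of all genes were called in either direction. Taf7, a subunit of the general transcription factor TFIID whose gene lies between the beta and gamma clusters, fell by 0.34 on the log2 scale at 9 months (edgeR adjusted p = 0.00784) and by 0.40 at 12 months (edgeR adjusted p = 0.00568). Its log2 change at 6 months was of similar size, -0.35 ± 0.09, and did not pass (edgeR adjusted p = 0.253). Gnpda1, an enzyme of amino sugar metabolism, rose by 0.40 ± 0.09 (edgeR adjusted p = 0.00293) and Arap3, a regulator of small GTPases, by 0.27 ± 0.08 (edgeR adjusted p = 0.0183) at 9 months. Pcdh1, a non-clustered protocadherin beyond the gamma cluster, rose by 0.54 ± 0.12 at 9 months and 0.52 ± 0.12 at 12 months (edgeR adjusted p = 0.00278 and 0.00735).

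Non-clustered protocadherins, which have promoters and exons of their own, had calls in both directions. Of 11 tested 3 rose and 0 fell at 9 months, and 2 rose and 1 fell at 12 months, with medians of 0.34 and 0.23 on the log2 scale. Over all genes tested 11.3% rose and 13.6% fell at 9 months, and 10.9% rose and 11.5% fell at 12 months. Besides Pcdh1, Pcdh17 rose from 33.5 CPM at 3 months to 51.8 at 9 months and 68.1 at 12 months, by 0.63 ± 0.20 and 1.02 ± 0.21 on the log2 scale (edgeR adjusted p = 0.0299 and 0.00378). Pcdh7 rose by 0.34 ± 0.11 at 9 months (edgeR adjusted p = 0.0261). Pcdh9 fell from 9.12 ± 1.85 CPM at 3 months to 5.62 ± 0.80 at 12 months (edgeR adjusted p = 0.030).

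The list of factors for promoter choice and silencing of the clusters held 22 tested genes. Of these 0 rose and 13 fell at 9 months, and 1 rose and 12 fell at 12 months, where 13.6% and 11.5% of all genes fell. The medians were -0.20 and -0.23 on the log2 scale, and 0 were called at 6 months, where 0.0193% of all genes were. Dnmt1, the maintenance DNA methyltransferase, had 149 ± 26.3, 134 ± 21.2, 82.6 ± 8.30 and 91.3 ± 12.6 CPM in order of age. It fell by 0.85 on the log2 scale at 9 months (edgeR adjusted p = 0.000181) and by 0.71 at 12 months (edgeR adjusted p = 0.0020). The part of the fall of the oocyte markers in that of Dnmt1 was not tested.

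Other factors of that list fell by smaller amounts. Pds5a, a cohesin regulator, fell by 0.26 at 9 months and 0.33 at 12 months on the log2 scale (edgeR adjusted p = 0.00324 and 0.00239). Dnmt3a, a de novo DNA methyltransferase, fell by 0.28 and 0.25 (edgeR adjusted p = 0.00249 and 0.00988). Pds5b, a further cohesin regulator, fell by 0.27 and 0.38 (edgeR adjusted p = 0.0135 and 0.0042). The gene that rose was Mau2, a cohesin loader, by 0.17 ± 0.05 at 12 months (edgeR adjusted p = 0.0178).

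Partners and signalling genes of the clustered protocadherins went both ways. Of 21 tested 5 rose and 2 fell at 9 months, 3 rose and 1 fell at 12 months, and 0 were called at 6 months. Of all genes tested 0.0193% were called at 6 months, 25.0% at 9 months and 22.4% at 12 months. Prkca, a protein kinase C gene, rose by 0.54 ± 0.12 at 9 months (edgeR adjusted p = 0.00329), and Ptk2b, the focal adhesion kinase relative that binds protocadherins, by 0.55 ± 0.15 (edgeR adjusted p = 0.0101). Ret, a receptor tyrosine kinase, rose by 1.74 ± 0.46 at 12 months (edgeR adjusted p = 0.0130). Rac1, a small GTPase that drives actin remodelling, rose by 0.12 ± 0.04 at 9 months and 0.13 ± 0.04 at 12 months (edgeR adjusted p = 0.0246 and 0.0239), and Adam10, the protease that sheds protocadherins, fell by 0.16 and 0.17 (edgeR adjusted p = 0.0242 and 0.0263).

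**Figure D5:**
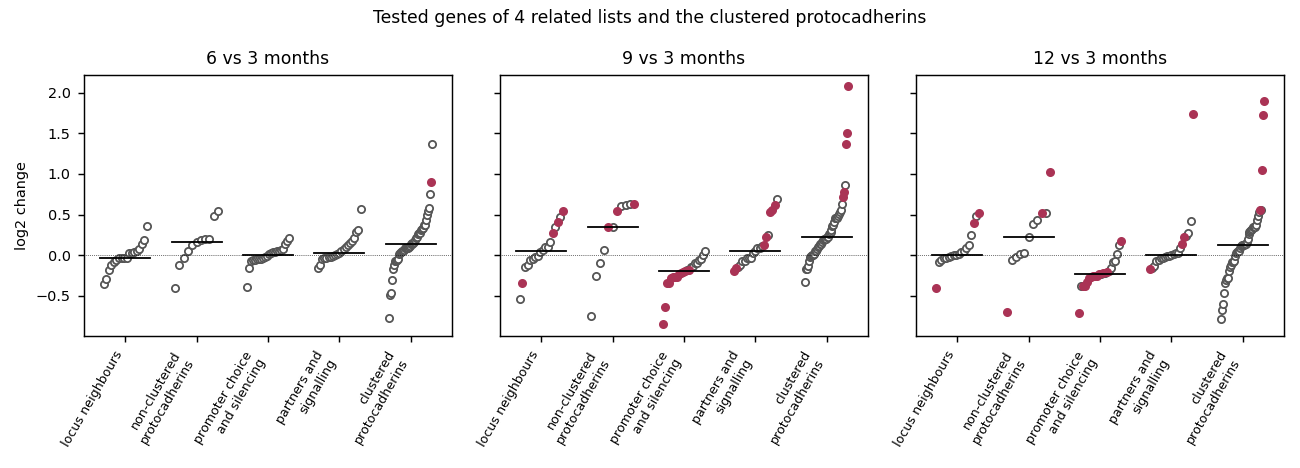
Log2 change of each tested gene of 4 related lists and of the clustered protocadherins at 6, 9 and 12 months against 3 months; red points have an edgeR adjusted p under 0.05 and lines are medians. In the promoter choice and silencing list 13 of 22 points are red and under 0 at 9 months, and in the 4 related lists none is red at 6 months.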

How the data were processed

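Whole-ovary RNA libraries of 4 ages were grouped by their age label. Per the file headers, the authors deposited a table of estimated counts (raw, often fractional) and a table of normalized log2 values. Genes in both are RefSeq models, and mm10 is the build the submitters' processing notes name. The aligner, the counter, the use of strand and the normalization were not given in the sources used here. The labels' protocols name a directional kit. A further column in each table (1 per table) belongs to none of the samples and was left out.

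Estimated counts were rounded and tested in R 4.3.3 with edgeR 4.0.16 (quasi-likelihood, robust, TMM, 1 mean per age over 19 libraries) after its low-count filter (minimum count 10, minimum total 15). Adjusted p-values are Benjamini-Hochberg values over all 15518 genes tested, with a threshold of 0.05, and a gene past it is called. CPM were made from the unrounded values. The 58 members were matched by NCBI gene ID to RefSeq, and 37 are in the authors' filtered table (raw values of 20 or more throughout at least 1 age). Transcript lengths and the 50-base windows came from GENCODE M21. The permutation test used scipy 1.17.1. Pairs of libraries of 1 age differed by more than counting noise (chi-square per degree of freedom 5.02 to 38.0, 36 pairs).

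The members, the gene lists, the markers and the rule for named genes were chosen with earlier results of these data known. The rule names Pcdhb9, its 3 nearest members on each side, the 2 members of each cluster with the highest mean, the C-type members, every member called and the up to 10 largest changes at 6 months, and from each list up to 4 called genes with the smallest p. Names outside it, such as Pcdhb1, Pcdhb3, Pcdhb5, Pcdhb18, Pcdhb20, Pcdhgb4, Pcdhgb7, Pcdhga5, Mau2, Adam10 and single cell type markers, were chosen after their values were seen. Alternatives were RLE size factors, DESeq2 1.42.0, limma 3.58.1 (voom with weights, and trend on the log2 values the authors deposited), no filter, CPM of at least 1 in 4 libraries, only the ages compared, no library with Cr2 over 5 CPM, and each library left out. Tested on simulated counts for 9 against 3 months (15387 genes), the steps found 41 of 67 genes made to differ 1.5-fold, 53 of 67 for 2-fold, 64 of 66 for 4-fold, and made 6 false calls. The genes made to differ were drawn from those with a mean over 1 CPM. These rates therefore do not cover lower genes such as Pcdha4 and Pcdhac2.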

Additional observations from a re-analysis of the deposited data

Results flagged for a closer look

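Over 100 groups of 4 or 5 libraries (each tested named gene or summed level at each age), 3 held a library far from the others, where chance gives about 1 in 20. Pcdhgb6 had 11.6 CPM in replicate 2 of 12 months, with the others at 17.5 to 18.3 CPM. Pcdhgc3 had 209 CPM in replicate 1 of 6 months, with the others at 170 to 176 CPM. Pcdhgc5 had 4.66 CPM in the same library, with the others at 0.79 to 1.30 CPM.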

How the results depend on the processing

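No paired analysis was possible because the labels give no replicate numbers shared between ages. In 6 against 3 months the count of clustered protocadherin genes called, 1, was 0 with limma-trend and 2 with limma-voom (Pcdhb9 and Pcdhb7), and the count of all genes, 3, was 47 in DESeq2, 0 with limma-trend, 174 with limma-voom, 34 with only the ages compared and 8 without the libraries with Cr2. At 9 months the 5 protocadherin genes, Pcdhb9 among them, became 11 with no filter, by way of 6 alpha genes, and 3 with only the ages compared. The count of all genes, 3872, became 3666 and 3224 in these settings. Many alpha genes held the same lowest value in a library, so these 6 are not 6 separate results. At 12 months the 4, Pcdhb9 again among them, became 8 with no filter, and the count of all genes, 3475, became 3158. In 12 against 9 months DESeq2 called 252 genes. Leaving out each library in turn gave 0 to 1 protocadherin genes at 6 months, with Pcdhb9 lost without replicate 3 of 3 months or replicate 3 of 6 months, 4 to 9 at 9 months (9 without replicate 5 of 9 months) and 3 to 6 at 12 months. It gave 0 to 4, 2784 to 4484 and 2124 to 3665 of all genes at 6, 9 and 12 months, the lowest at 12 months without replicate 3 of 12 months, and 0 to 278 in 12 against 9 months, the highest without replicate 5 of 9 months. The log2 ratio of the beta sum to 3 months was 0.31, 0.52 and 0.33 at 6, 9 and 12 months, and 0.16, 0.27 and 0.14 without Pcdhb9. That of the gamma sum at 12 months was -0.03, and 0.10 without Pcdhgc3, a turn of sign, and leaving out each library in turn gave -0.08 to 0.01. The alpha sum in 12 against 9 months, -0.09, ran from -0.30 to 0.07 in the same way. These sums carry no test. The cause of the other differences was not tested. Depth limits the alpha genes most, with sums of 29 to 149.8 estimated counts.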
